A study of Mus musculus with 9 samples.

Results

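The genes described here are 37 genes of the lysosome: cathepsins and other acid proteases, glycosidases, lipid-handling enzymes and their cofactors, and proteins of the lysosomal membrane. They were chosen by name, as genes whose platform symbol is exactly that of a listed lysosomal gene, and all 37 were measured among the 18193 genes on the arrays. Each gene was represented by its brightest probe set (highest mean of all 9 arrays), and the 82 probe sets of these genes were also examined one by one. RNA was measured in 5 splenic lymphomas of mice carrying the Sca1-MALT1 transgene and in 4 spleens of wild-type mice without disease, all as frozen tissue, with 1 array per sample. The labels give neither age nor strain nor the cells that express the transgene, and do not say that each sample came from a separate animal, so a p-value reflects only how these samples vary, which may be partly technical. Sca1 is a surface protein of blood stem and progenitor cells and MALT1 a protease and scaffold that links antigen receptors to NF-kB.

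Lysosomes are acidic compartments in which proteases, glycosidases and lipases break down what a cell engulfs or recycles. A proton pump keeps them acidic, most of the soluble enzymes reach them through mannose 6-phosphate receptors, and many lysosomal genes carry promoter elements bound by the related transcription factors TFEB, TFE3, MITF and TFEC. In the spleen, macrophages of the red pulp use them to digest aged red cells, and B cells and dendritic cells use cathepsins to prepare antigens for MHC class II. Values below are log2 levels as deposited, and differences are lymphoma minus wild-type on the log2 scale, so that a difference of 1 is a doubling. A gene is called when its limma p-value, adjusted by Benjamini-Hochberg over all 18193 genes, is under 0.05. In whole tissue, more cells of a type and more RNA per cell cannot be told apart.

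Of the 37 lysosomal genes 2 rose in lymphoma, the proteases Ctsd and Ctsb, and none fell (0). That is 5.41% called higher, where limma called 0.407% of all genes higher and 0.308% lower, 0.715% in all. Differences were small for most of the others, and 0 of the 37 genes reached 2-fold, against 1.36% of all genes at least 2-fold higher. Differences were positive for 28 of the 37 genes and lay within 0.25 of 0 for 24, with a median of 0.15, against a median of 0.0012 over all genes. At an unadjusted p under 0.05 there were 11 genes higher and 1 lower, the 11 being 29.7% of the 37 against 6.69% of all genes higher at that level, and 8% of all genes were lower. All 5 lymphomas lay above all 4 wild-type spleens for 8 genes (Ctsd, Ctsf, Ctsb, Gla, Lipa, Ctsc, Gaa and Lamp1), or 21.6%, and below them for 1, Mcoln1. Over all genes these shares were 3.29% above and 4.04% below. The 37 genes were bright, with a median percentile of 92.83 for mean level among all genes, and 21 lay above the 90th percentile. The shares over all genes given here are therefore not matched for level, and the effect of level on them was not tested. The 95% interval of the difference lay wholly between -1 and 1 for 35 genes, the exceptions being Ctsd and Ctse.

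**Figure D1:**
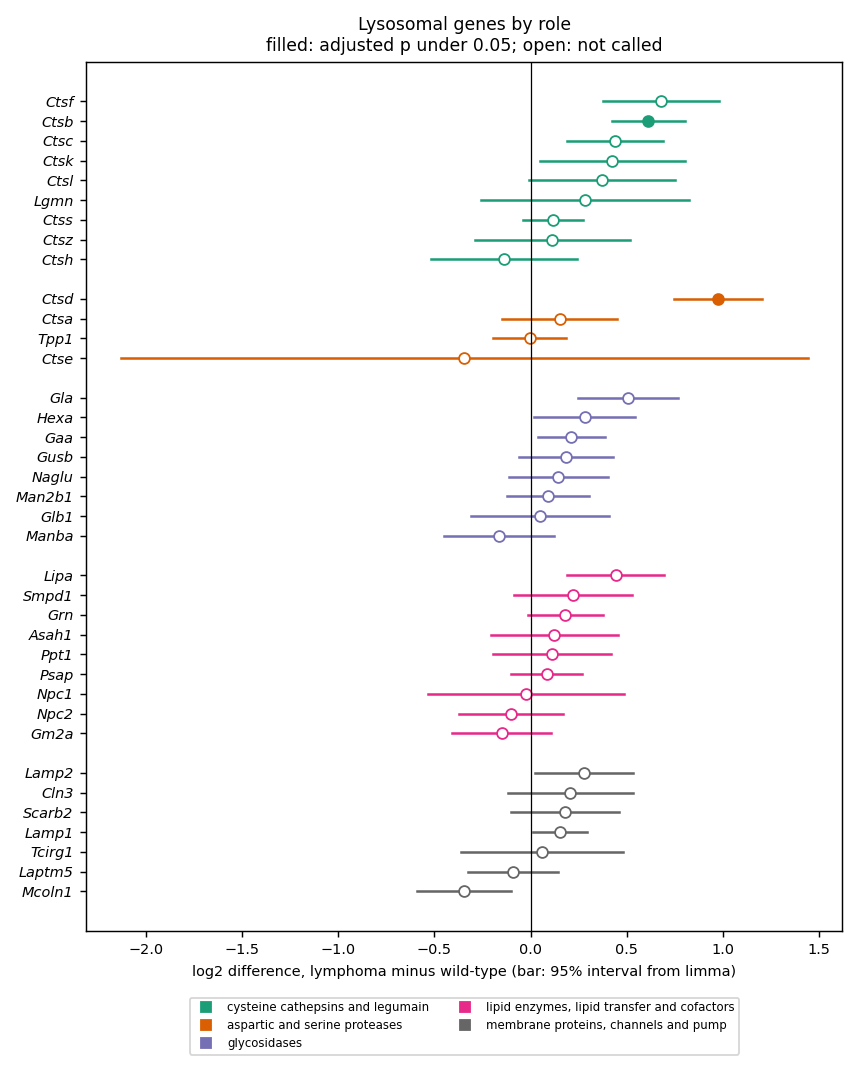
Log2 difference between lymphoma and wild-type (horizontal axis) for each of the 37 lysosomal genes, grouped by role and sorted within each group, with 95% intervals from limma. Filled circles mark the 2 called genes, Ctsd at 0.98 and Ctsb at 0.61, and the interval of Ctse runs from -2.13 to 1.44.

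Ctsd encodes cathepsin D, the main aspartic protease of lysosomes. It stood at 12.47, 12.49, 12.34, 12.78 and 12.62 in lymphomas 1 to 5, against 11.74, 11.48, 11.54 and 11.50 in wild-type spleens 1 to 4. The lowest lymphoma lay clearly above the highest wild-type spleen. The difference was 0.98 with a standard error of 0.10, or 1.97-fold (95% interval of the log2 difference 0.75 to 1.203, limma adjusted p 0.00724). The call was kept with any 1 array left out, with limma adjusted p-values between 0.00565 and 0.0474 and differences between 0.92 and 1.03. Ctsd has a single probe set here, so no second probe set bears on it.

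Ctsb encodes cathepsin B, a cysteine protease that cuts both within proteins and at their ends. Its brightest probe set stood at 13.96, 13.94, 13.74, 13.78 and 13.69 in lymphomas 1 to 5, against 13.29, 13.11, 13.16 and 13.29 in wild-type spleens 1 to 4. The groups did not overlap, and the difference was 0.61 with a standard error of 0.084 (limma adjusted p 0.0217). Of its 5 probe sets 4 were called in a fit over all 45037 probe sets, in which 0.251% were called higher. The other 3 called probe sets differed more than the brightest one, by 1.01, 1.04 and 0.91, and the fifth differed by 0.20 without being called. On the brightest probe set the call ended without any 1 of the wild-type spleens, with limma adjusted p-values of 0.0598, 0.0968, 0.106 and 0.0647 without wild-type spleens 1 to 4, while the difference stayed between 0.58 and 0.65.

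**Figure D2:**
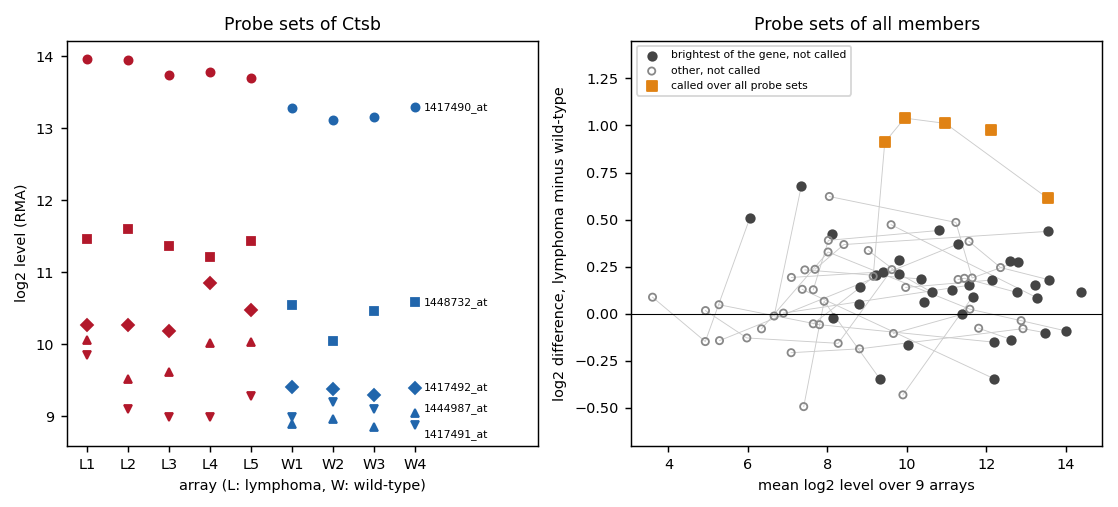
Left, log2 level of the 5 Ctsb probe sets (one marker shape for each probe set) in every lymphoma (L) and wild-type (W) array. Right, the log2 difference of each of the 82 probe sets of the lysosomal genes against its mean level, with grey lines joining probe sets of one gene; the 5 called ones are 4 of Ctsb and the single one of Ctsd.

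Promoter sequences were read for the genes whose groups did not overlap, because TFEB and its relatives are known to bind the letters TCACGTGA, which hold the shorter CACGTG. The RefSeq promoter table of build GRCm38.p6 covers 250 bases before to 50 bases after a gene's start and has an entry for 32 of the 37 genes. CACGTG, which reads the same on both strands, was found for 12 of these 32 genes (37.5%), against 8.09% of the 27025 genes in the table and 7.15% of its 32851 promoters. TCACGTGA, which reads the same on both strands and always contains CACGTG, was found for 5 of the 32 (15.6%), namely Cln3, Ctsa, Ctsd, Gla and Mcoln1, against 1.12% of all genes and 0.974% of promoters. Such a match describes letters in a window and is not a binding measurement. Cln3, Ctsa, Ctsl, Glb1, Lgmn and Naglu hold CACGTG in the window and had groups that overlapped. Of the 9 genes whose groups did not overlap 8 have an entry, the called gene Ctsb having none, and 6 hold the motif before the start. Those stretches are printed 5' to 3' on the gene's own strand with capitals marking TCACGTGA where it is complete and CACGTG elsewhere, to show that it stands before genes with a positive difference and before the one with a negative difference.
Ctsd (chr7:142387900-142388077, minus strand): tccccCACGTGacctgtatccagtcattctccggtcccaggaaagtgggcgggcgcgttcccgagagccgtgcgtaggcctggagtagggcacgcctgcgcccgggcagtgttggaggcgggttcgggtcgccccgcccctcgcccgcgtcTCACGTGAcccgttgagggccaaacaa
Gla (chrX:134601174-134601252, minus strand): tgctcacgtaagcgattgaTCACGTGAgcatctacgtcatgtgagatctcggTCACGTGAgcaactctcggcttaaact
Ctsf (chr19:4855066-4855111, plus strand): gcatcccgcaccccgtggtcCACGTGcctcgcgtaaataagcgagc
Gaa (chr11:119267803-119267848, plus strand): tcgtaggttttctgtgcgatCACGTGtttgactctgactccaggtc
Lamp1 (chr8:13159080-13159160, plus strand): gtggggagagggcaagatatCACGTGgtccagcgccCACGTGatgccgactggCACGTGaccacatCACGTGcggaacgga
Mcoln1 (chr8:3500428-3500499, plus strand): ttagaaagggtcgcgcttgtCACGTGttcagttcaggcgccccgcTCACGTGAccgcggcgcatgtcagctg
In Ctsd CACGTG begins 245 and 98 bases before the start, the nearer copy inside the longer form. The Gla stretch holds the longer form 2 times, Lamp1 holds CACGTG 4 times within 61 bases of the start, and Mcoln1 holds 1 copy of each form within 71 bases. Ctsc and Lipa, whose lymphomas also lay above all wild-type spleens, have neither form in the window.

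Cysteine cathepsins and legumain included 1 of the 2 called genes. Of these 9 genes 1 rose, Ctsb, 8 did not pass, and 8 differences were positive, with a median of 0.37. Ctsf encodes cathepsin F, which trims the invariant chain of MHC class II in macrophages. It stood at 8.003, 7.66, 7.66, 7.65 and 7.26 in lymphomas 1 to 5, against 6.94, 6.84, 6.97 and 7.12 in wild-type spleens 1 to 4. The lymphomas all lay above the wild-type spleens, and the difference of 0.68 ± 0.13 (SE) had the smallest limma adjusted p outside the called genes, 0.0617. With 1 array left out that p lay between 0.0439 and 0.222, and it was under 0.05 in 1 of the 9 cases, without lymphoma 5. Its other probe set differed by -0.012. The wild-type values of Ctsf lie near the array medians, which run from 6.88 to 6.97.

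Ctsc encodes cathepsin C, the dipeptidyl peptidase that activates the granule proteases of neutrophils and cytotoxic lymphocytes. Its values were 13.56, 13.91, 13.77, 13.83 and 13.70 in lymphomas 1 to 5, against 13.47, 13.51, 13.12 and 13.15 in wild-type spleens 1 to 4. The gap between the lowest lymphoma and the highest wild-type spleen was narrow, and the difference was 0.44 (limma adjusted p 0.117). All 3 of its probe sets differed in the positive direction, by 0.24 to 0.44. Ctsk, best known as the collagen-digesting cathepsin of osteoclasts, differed by 0.42, and Ctsl, a broad endopeptidase, by 0.37. Neither was called over all arrays (limma adjusted p 0.29 and 0.35). In both genes 4 lymphomas lay above every wild-type spleen and lymphoma 2 lay below them all. Without lymphoma 2 the differences were 0.58 for Ctsk and 0.51 for Ctsl, larger by construction since the lowest lymphoma is dropped, and limma called both (adjusted p 0.0200 and 0.0499). In that setting 236 of all genes were called higher, against 74 with all arrays. With each of the other arrays left out neither gene was called, and adjusted p-values reached 0.556 for Ctsk and 0.580 for Ctsl. The dimmer probe set of Ctsl differed by -0.14.

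Ctss, the cathepsin that completes invariant chain removal in B cells and dendritic cells, differed by 0.12 with a 95% interval of -0.040 to 0.27. Ctsz, a carboxypeptidase, differed by 0.11, and Ctsh, an aminopeptidase, by -0.14. In lymphoma 1 both stood low, at 12.22 for Ctsz and 11.99 for Ctsh, each below the lowest wild-type spleen. Lgmn, legumain, which cuts after asparagine, differed by 0.28 with a wide interval (-0.26 to 0.82).

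**Figure D3:**
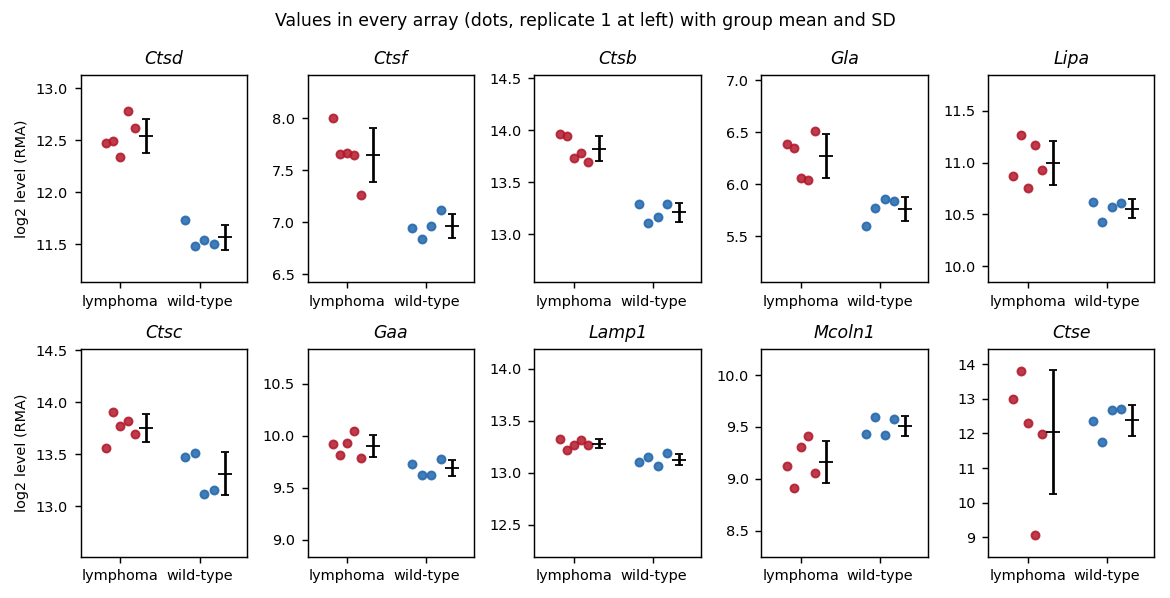
Log2 level in every lymphoma (red) and wild-type (blue) array for the 9 lysosomal genes whose groups did not overlap, and for Ctse, with group mean and SD. Each panel spans 2 log2 units except that of Ctse, which spans 6; lymphoma 4 lies at 9.08 for Ctse.

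Among the aspartic and serine proteases Ctsd rose and the other 3 did not pass. Ctse encodes cathepsin E, an aspartic protease of endosomes found in immune cells and, in human blood, on red cell membranes. It stood at 12.98, 13.81, 12.29, 9.08 and 11.996 in lymphomas 1 to 5, against 12.35, 11.76, 12.67 and 12.71 in wild-type spleens 1 to 4. Lymphoma 2 was the highest and lymphoma 4 the lowest of all 9 arrays, and the SD was 1.79 in lymphoma (n = 5) and 0.44 in wild-type (n = 4). The difference of -0.34 (limma adjusted p 0.88) became 0.39 without lymphoma 4 and -1.25 without lymphomas 1 and 2. The mean deviation of 9 erythroid marker genes from their wild-type means was 3.80, 3.51, 1.17, -0.95 and 0.53 in lymphomas 1 to 5, against 1.14, -0.43, -0.35 and -0.37 in wild-type spleens 1 to 4, so that lymphoma 4 was lowest in both. Wild-type spleen 1 had the highest erythroid mean of the wild-type spleens, yet its Ctse value lay below those of wild-type spleens 3 and 4. Ctse was called in no setting, a fit with this mean deviation as covariate included, so that fit cannot decide the matter. The part of erythroid cells in the Ctse values was not tested. The dimmer probe set of Ctse differed by 0.13, with lymphoma 1 highest at 8.50 and lymphoma 4 lowest at 6.32. Ctsa, the carboxypeptidase that also protects beta-galactosidase and neuraminidase, differed by 0.15. Tpp1, a tripeptidyl peptidase, differed by -0.0032 (95% interval -0.19 to 0.19).

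The glycosidases, which remove sugars from glycoproteins and glycolipids, had 0 called genes among 8; before adjustment, limma p-values were under 0.05 for 3 higher and 0 lower. Gla, alpha-galactosidase A, stood at 6.39, 6.35, 6.06, 6.04 and 6.52 in lymphomas 1 to 5, against 5.60, 5.77, 5.85 and 5.84 in wild-type spleens 1 to 4. The lymphomas lay above the wild-type spleens, by 0.51 on average (limma adjusted p 0.0921), although all values were below the median of their array. The other 2 Gla probe sets, both dimmer, differed by -0.15 and 0.088. Gaa, acid alpha-glucosidase, which digests glycogen, stood at 9.92, 9.82, 9.93, 10.05 and 9.78 in lymphomas 1 to 5, against 9.73, 9.63, 9.63 and 9.78 in wild-type spleens 1 to 4. Its groups nearly touched, with a difference of 0.21 on a probe set whose suffix marks possible matches to other transcripts (limma adjusted p 0.251), and 0.34 on its second probe set. Hexa, the alpha chain of beta-hexosaminidase, differed by 0.28 (limma adjusted p 0.311).

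Gusb (beta-glucuronidase), Naglu (an enzyme of heparan sulphate breakdown), Man2b1 (alpha-mannosidase) and Glb1 (beta-galactosidase) differed by 0.18, 0.14, 0.091 and 0.049. Manba, beta-mannosidase, differed by -0.17. The sign of Man2b1 depended on the probe set, since its second one differed by -0.43. That of Glb1 depended on single arrays, with -0.044 without lymphoma 2, -0.011 without lymphoma 3 and -0.0021 without wild-type spleen 2.

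In the lipid group, 0 of 9 genes were called; before adjustment, limma p-values were under 0.05 for 1 higher and 0 lower. Lipa, the acid lipase that frees cholesterol from its esters, stood at 10.87, 11.27, 10.76, 11.17 and 10.93 in lymphomas 1 to 5, against 10.62, 10.42, 10.57 and 10.61 in wild-type spleens 1 to 4. The groups did not overlap, and the difference was 0.44 (95% interval 0.19 to 0.70, limma adjusted p 0.118). Its other 2 probe sets differed by 0.39 and 0.13. The transporters that pass the freed cholesterol out of the lysosome had negative differences. Npc2 differed by -0.10, negative on all 4 of its probe sets, and Npc1 by -0.023 with an interval from -0.53 to 0.49. Npc1 turned positive without lymphoma 1 or 2 or wild-type spleen 3 or 4, between 0.048 and 0.14, and Npc2 was at 0.0036 without lymphoma 2.

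Smpd1 (acid sphingomyelinase), Asah1 (acid ceramidase) and Ppt1 (palmitoyl-protein thioesterase) differed by 0.22, 0.12 and 0.11. The cofactor genes showed small differences. Grn, progranulin, differed by 0.18 (limma adjusted p 0.375), with 0.25 and 0.38 on its other 2 probe sets. Psap, the precursor of the saposins that present lipids to these enzymes, differed by 0.084, and Gm2a, the GM2 activator, by -0.15.

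Membrane proteins also had 0 called genes among 7; before adjustment, limma p-values were under 0.05 for 2 higher and 1 lower. Lamp1, one of the most abundant lysosomal membrane glycoproteins, stood at 13.32, 13.22, 13.27, 13.32 and 13.27 in lymphomas 1 to 5, against 13.11, 13.15, 13.06 and 13.19 in wild-type spleens 1 to 4. The lymphomas lay above by a small and even step of 0.15 (limma adjusted p 0.299). Lamp2, its relative that also serves chaperone-mediated autophagy, differed by 0.28 on the brightest of 4 probe sets, and the other 3 differed by 0.19, 0.49 and 0.62. Mcoln1, the calcium channel of the lysosomal membrane, stood at 9.13, 8.91, 9.30, 9.41 and 9.06 in lymphomas 1 to 5, against 9.43, 9.60, 9.42 and 9.58 in wild-type spleens 1 to 4. All lymphomas lay below, the nearest by a small margin, with a difference of -0.34 (95% interval -0.59 to -0.10, limma adjusted p 0.198). Of the other 2 Mcoln1 probe sets one differed by -0.49 and the other by 0.066.

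Cln3, a membrane protein lost in juvenile Batten disease, differed by 0.21 and Scarb2, the receptor that carries glucocerebrosidase to lysosomes, by 0.18. Tcirg1, a subunit of the proton pump, differed by 0.061 and had 1 array apart from the rest, lymphoma 2 at 9.74 against 10.57 to 10.70 in the other lymphomas and 10.29 to 10.48 in the wild-type spleens. Laptm5, a lysosomal membrane protein of blood cells that limits antigen receptor levels, differed by -0.091 on its brightest probe set, and its 5 probe sets ranged from -0.091 to 0.33.

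The lymphomas were less uniform than the wild-type spleens. The SD among lymphomas exceeded that among wild-type spleens for 33 of the 37 genes, with a median SD of 0.22 in lymphoma and 0.090 in wild-type. The same held for 78.9% of all genes, with a median SD of 0.20 in lymphoma and 0.11 in wild-type. The number of genes above the highest wild-type value was 19, 16, 27, 21 and 23 in lymphomas 1 to 5, and the number below the lowest wild-type value was 10, 13, 2, 3 and 3. Lymphomas 1 and 2 thus had most of the low values, and lymphoma 2 was the lowest of all 9 arrays for 13 genes. Without lymphomas 1 and 2, limma called 5 of the 37 genes, all higher (Ctsd, Ctsb, Ctsf, Ctsk and Ctsl), and the median difference was 0.21. In that setting it called 417 of all genes higher and 184 lower, against 74 higher and 56 lower with all arrays. The 2 lymphomas left out hold most of the low values of these 37 genes. Leaving them out therefore favours positive differences and a larger median by construction.

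**Figure D4:**
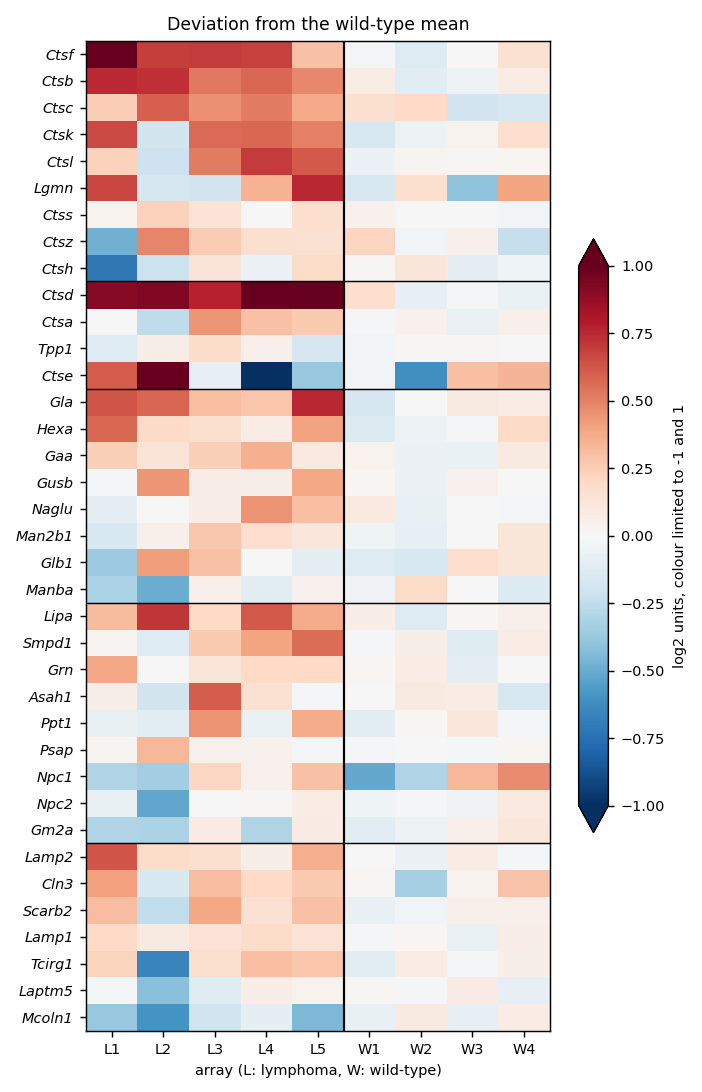
Deviation of each lysosomal gene (rows, grouped by role) from its wild-type mean, in log2 units, in every lymphoma (L1 to L5) and wild-type (W1 to W4) array. The Ctsd row reads high in all 5 lymphomas, and L1 and L2 hold most of the low values (10 and 13 genes below the lowest wild-type spleen).

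Marker genes of the cells a spleen can hold were read on the same arrays. Of 16 macrophage genes 9 rose and 1 fell, Marco, with a median difference of 0.91. The other 6 were not called: Cd163 (1.09), Mertk (0.83), Adgre1 (0.49), Csf1r (0.20), Siglec1 (-0.061) and Timd4 (-0.45). Among the 9 that rose are Cd68, itself a lysosomal membrane protein of macrophages (0.996), and the complement gene C1qa (1.93), with limma adjusted p-values of 0.0217 and 0.00463. The counts of called genes depended on single arrays. Without lymphoma 5, 4 macrophage genes were called higher (C1qa, C1qb, C1qc and Vcam1), and without wild-type spleens 1 to 4 there were 4, 2, 3 and 3. C1qa and C1qc were called with any 1 array left out, Cd68 in 4 of the 9 cases, Spic, Slc40a1 and Axl in 3, and Marco in 8, its call ending without wild-type spleen 3. The mean deviation of the macrophage list from its wild-type means ran from 0.62 to 1.15 in the lymphomas, against -0.15 to 0.079 in the wild-type spleens, and that of the 37 lysosomal genes from 0.083 to 0.25 in the lymphomas, against -0.034 to 0.060 in the wild-type spleens. By these means both lists lay higher in every lymphoma than in every wild-type spleen. For the lysosomal genes the step was narrow, from 0.060 in wild-type spleen 4 to 0.083 in lymphoma 2. By the median deviation of the 37 genes lymphoma 2 lay lower, at 0.0031 against 0.052 in wild-type spleen 4. Within the lymphomas, lymphoma 1 had the highest mean for macrophage markers and lymphoma 5 for lysosomal genes.

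All 11 measured neutrophil and precursor genes were positive (median 2.58, 0 called by limma, 7 higher before adjustment), with mean deviations from 0.073 to 5.82 in the lymphomas, against -0.25 to 0.28 in the wild-type spleens. The 7 mature B-cell genes were all negative (median -0.51, 0 called by limma, 4 lower before adjustment), and the same held for 6 T-cell genes (median -0.69, 0 called, 2 lower) and 5 dendritic cell genes (median -0.22, 0 called, 2 lower). Plasma cell genes were positive, all 6 of them (median 0.60, 0 called, 3 higher), and so were the 9 erythroid genes (median 1.93, 0 called, 1 higher). In a fit with the mean erythroid deviation as covariate, given below, Ctsd and Ctsb were called. That fit does not measure the share of any cell type in the tissue. The part of any of these cells in the lysosomal differences was not tested.

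**Figure D5:**
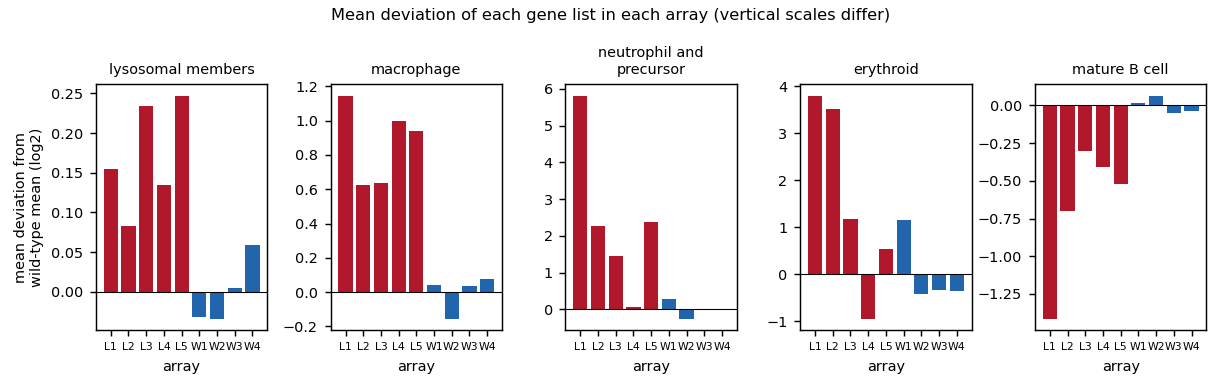
Mean deviation from the wild-type mean, in log2 units, of the 37 lysosomal genes and of markers of macrophages, neutrophils and their precursors, erythroid cells and mature B cells, in each lymphoma (L1 to L5, red) and wild-type (W1 to W4, blue) array, with a scale for each panel. The lysosomal bars of the lymphomas lie between 0.083 and 0.25 and the macrophage bars between 0.62 and 1.15.

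Other genes of the lysosome gave 3 called genes among 50 measured, all higher, with a median difference of 0.060 over the 50. Over all genes limma called 0.407% higher. Of 18 further hydrolases 2 rose and 16 did not pass. Of their differences 8 were positive and 10 negative, with a median of -0.0087. The 2 that rose were the lysosomal phospholipase gene Pla2g15 (0.61, limma adjusted p 0.0361) and the lysosomal acid phosphatase gene Acp2 (0.49, limma adjusted p 0.0255). Acp2 stood between 9.78 and 9.95 in the lymphomas, against 9.27 to 9.48 in the wild-type spleens, and Pla2g15 between 9.95 and 10.42 in the lymphomas, against 9.47 to 9.54 in the wild-type spleens. For both genes every lymphoma lay above every wild-type spleen. Among 11 sorting and regulator genes 1 rose, Tfec, the TFEB relative found mainly in macrophages, which stood at 8.19, 7.74, 7.42, 7.94 and 7.62 in lymphomas 1 to 5, against 6.82, 6.68, 6.99 and 6.99 in wild-type spleens 1 to 4 (difference 0.91, limma adjusted p 0.0361). Its relatives differed by 0.45 (Mitf), 0.17 (Tfe3) and 0.065 (Tfeb) and were not called. The calls of Pla2g15 and Tfec ended without lymphoma 4, lymphoma 5 or any 1 of the wild-type spleens, and that of Acp2 without lymphoma 5 or any 1 of the wild-type spleens, with limma adjusted p-values up to 0.148.

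Proton pump subunits had 0 calls among 16 measured and a median of 0.040; before adjustment, limma p-values were under 0.05 for 1 higher and 0 lower. The 2 largest differences were those of Atp6v0d2, a subunit of osteoclasts and macrophages (0.93, limma adjusted p 0.123, all lymphomas above all wild-type spleens), and of Atp6v0a1 (0.45). Of 5 measured cysteine protease inhibitors 0 were called by limma, 2 were higher before adjustment, and all 5 differences were positive. Stfa3, a stefin of neutrophils and their precursors, differed by 1.03 ± 0.46 (SE, limma adjusted p 0.344), and Cst7, cystatin F of cytotoxic and myeloid cells, by 0.99 (limma adjusted p 0.0625). Cst7 lay between 9.76 and 10.59 in the lymphomas, against 9.01 to 9.42 in the wild-type spleens.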

How the data were processed

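Total RNA from frozen spleen tissue (5 Sca1-MALT1 lymphomas, 4 wild-type spleens) was biotin-labelled and hybridised to 1-colour Affymetrix mouse arrays, per the labels' protocols. The deposited values are log2 levels that the authors made with RMA, as named per the submitters' processing notes, which give no version. After sorting, values at the same rank were at most 0.191 apart between arrays, so the log2 values were used as deposited. The number of arrays limits the precision, and the labels name no batch.

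The table has 45101 probe sets, including 64 controls that were left out, and platform symbols gave 18193 genes (34958 probe sets had 1 symbol, 932 several, 9211 none; RefSeq changed 0 symbols). limma 3.58.1 in R 4.3.3 (lmFit, eBayes, two-sided, Benjamini-Hochberg) compared the groups over all genes. On simulated data the fit recovered 83% of 100 genes changed by 1 log2 unit and 97% of 100 changed by 2. It made 16 false calls there. None of the lysosomal genes differed by as much as 1 log2 unit, so the recovered shares do not tell how often smaller changes are missed. The members, lists and tests were chosen with earlier results of these data known. Values in every array are given for called members, members whose groups do not overlap and the member with the largest difference in each role. Companion lists name up to 4 called genes or, with none, the 2 that differ most, and other genes named beside them were chosen after their values were seen. Of 58 companion genes 8 and of 66 marker genes 6 were not analysed here. Promoter windows were read from RefSeq's table, where 1864 overlapping pairs on opposite strands matched. Figures used matplotlib 3.10.9.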

Additional observations from a re-analysis of the deposited data

Results flagged for a closer look

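Within-group outliers were looked for in 74 sets of values (37 genes in each of 2 groups) by the gap between the most extreme array and its nearest neighbour as a share of the range. Chance marks about 1 set in 20, and 6 were marked. Lymphoma 2 stood apart in 4 of them: low for Ctsk (7.69, the next at 8.38), Npc2 (13.02, next 13.46) and Tcirg1 (9.74, next 10.57), and high for Psap (13.56, next 13.27). Wild-type spleen 1 was low for Ctsl (11.02, next 11.09) and Tpp1 (11.35, next 11.39), both by small amounts in a tight group. Without lymphoma 2 the differences were 0.58 for Ctsk, 0.0036 for Npc2, 0.24 for Tcirg1 and 0.023 for Psap.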

How the results depend on the processing

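The number of called lysosomal genes was 2, both higher, with a filter on dim probe sets (all 37 genes passed it), quantile normalization, median centring, an intensity trend, a robust prior, the mean of a gene's probe sets, the probe set with the largest SD and the erythroid covariate. It was 6 with array weights, 5 without lymphomas 1 and 2, 5 probe sets in the fit over all probe sets, 12 genes (11 higher, 1 lower) at an unadjusted p, and 1 without probe sets whose suffix marks possible shared or alternative transcripts, where 29 of the 37 genes, Ctsd not among them, could be measured. With 1 array left out it ranged from 1 to 4, being 4 without lymphoma 2 and 1 without any 1 of the wild-type spleens. Array weights also raised the calls over all genes, to 327 higher and 205 lower, against 74 and 56 in the main fit. The companion lists had 3 calls, 7 with array weights, 8 without lymphomas 1 and 2, 0 with the replicate block, and 0 to 7 with 1 array left out. The macrophage list had 10 calls, 4 with the replicate block, 6 with the erythroid covariate, and 3 to 11 with 1 array left out. Counts over the companion and macrophage lists in these settings were added after seeing the data. The median difference over the lysosomal genes stayed between 0.13 and 0.21.

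The labels give running numbers and do not say whether same-numbered samples are paired. Deviations of same-numbered arrays correlated at 0.12, -0.20, 0.14 and 0.0041, and 2 of 4 lymphomas correlated best with their own number. So few values cannot settle whether the samples are paired. The replicate block on the 8 arrays with numbers 1 to 4 called 0 lysosomal genes (Ctsd 0.96, limma adjusted p 0.171; Ctsb 0.65, 0.172), against 3 without the block on the same arrays, and 6 genes higher and 1 lower overall.

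Of the 37 genes 9 changed sign in some setting, none of them called in any setting that changed it. With array weights Npc1 stood at 0.25 and Tpp1 at 0.021; without lymphomas 1 and 2 Npc1 was at 0.18, Ctsh at 0.081, Npc2 at 0.031 and Tpp1 at 0.019; with the erythroid covariate Npc1 was at 0.21, Ctsh at 0.046, Npc2 at 0.019 and Tpp1 at 0.018. Tpp1 was at 0.024 with quantile normalization and 0.039 with the replicate block. Other probe sets turned Man2b1 to -0.43 (largest SD, or no shared suffix) and -0.17 (mean), Laptm5 to 0.33 and 0.029 in the same settings, and Ctsl to -0.14 (no shared suffix). With 1 array left out Ctse ranged from -0.79 to 0.39, Npc1 from -0.19 to 0.14, Ctsh from -0.22 to 0.0074, Glb1 from -0.044 to 0.15, Npc2 from -0.14 to 0.0036 and Tpp1 from -0.049 to 0.039. The cause of these changes was not tested. Gla lies below the array medians, the wild-type values of Ctsf lie near them, and no detection calls were used. Among the companion genes, Atp6v0d2 (mean 6.40 in lymphoma, 5.47 in wild-type) and Stfa3 (5.19 and 4.16) had means below the lowest array median.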

Other observations

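Cathepsins of other cell types were measured besides the 37 lysosomal genes. Ctsg, cathepsin G of neutrophil granules, stood at 10.93, 6.52, 6.30, 5.92 and 7.07 in lymphomas 1 to 5, against 5.47, 5.64, 5.68 and 5.64 in wild-type spleens 1 to 4. All lymphomas lay above the wild-type spleens, with lymphoma 1 far above the rest, and the difference of 1.74 was not called (limma adjusted p 0.41). Ctsw, cathepsin W of cytotoxic lymphocytes, stood at 9.52, 9.24, 11.04, 10.62 and 10.55 in lymphomas 1 to 5, against 9.98, 10.08, 10.29 and 10.46 in wild-type spleens 1 to 4. Its lymphomas lay on both sides of the wild-type range, lymphomas 1 and 2 below it and lymphomas 3, 4 and 5 above it, and the mean difference was -0.0083.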
